A study of Homo sapiens with 4 samples.

Results

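A set of 10 genes that restrain ERK signalling or report on it was followed in HepG2 cells treated with APRIL: the phosphatases DUSP1, DUSP4, DUSP5 and DUSP6, the Sprouty and Spred proteins SPRY2, SPRY4, SPRED1 and SPRED2, and the ERK-induced genes PHLDA1 and IER3. The genes were taken from a list of names, which was chosen with earlier results of these data known. Every probe set annotated with exactly 1 of these symbols was used, which gave 25 probe sets for 10 of the 19775 genes that could be read. HepG2 is an established hepatocyte-like human liver cancer line, and APRIL is a soluble cytokine of the tumour necrosis factor family. Cells were kept without serum (24 h in the series' design text, overnight in the labels' protocols) and then given 200 ng/ml APRIL, with total RNA hybridised to Affymetrix U133 Plus 2.0 arrays. There were 4 arrays, 1 for untreated cells at 0 h and 1 each for cells at 2, 6 and 12 h of APRIL. No untreated array at a later time was among those used here, so APRIL and time in culture cannot be told apart.

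ERK is the last kinase of the cascade that runs from growth factor receptors through RAS, RAF and MEK. When ERK is active it induces its own inhibitors: dual-specificity phosphatases (DUSPs) remove the phosphates that MEK adds, in the nucleus (DUSP1, DUSP4, DUSP5) or the cytoplasm (DUSP6), and Sprouty and Spred proteins act further up, at the level of receptors, RAS and RAF. Transcripts of DUSP6, SPRY2, SPRY4, DUSP4 and PHLDA1 are widely used as a readout of ERK activity, while DUSP1 and IER3 are also induced by stress kinases and by NF-kB.

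The deposited values are log2 values relative to each probe set's own median over the 4 arrays, so they hold no expression level, and the presence of a transcript or of the hepatocyte markers cannot be checked from them. A difference between 2 arrays is given below as a log2 ratio, where 1 is 2-fold. The ratio of a gene is the median over its probe sets, and the standard deviation (SD) between its probe sets is given as their spread. Probe sets of a gene share the same arrays, so this SD holds no variation between arrays or cultures and is not an error of the ratio. Because each time has 1 array, neither a replicate error nor a test can be given, and all comparisons with 0 h share the 0 h array. As a yardstick, the robust SD of all genes against 0 h was 0.163, 0.196 and 0.238 at 2, 6 and 12 h, which holds any response as well as noise. The bacterial RNAs spiked into each hybridisation, read by 18 probe sets, lay at a median of -0.35 for 12 h over 0 h (from -0.47 to -0.21) and -0.44 for 12 h over 6 h, while the medians of all genes were 0.01 and -0.02. Relative to these RNAs every 12 h ratio below would be higher by that amount, so that small negative 12 h ratios turn positive, and the part of this offset in the 12 h values was not tested.

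Promoter windows of 300 bases (250 before and 50 after an annotated start) were read for 7 of the 10 genes, from RefSeq on GRCh38.p14. DUSP4 was left out, and DUSP5 and IER3 had no such windows. Shown here are those of 3 of the 5 genes with the highest 12 h ratios, DUSP1 (chr5:172771146-172771445, minus strand), PHLDA1 (chr12:76031727-76032026, minus strand) and SPRY4 (chr5:142324198-142324497, minus strand). Each is printed on the strand of its gene, and capitals mark TGACG (the core of the cAMP response element), CCGGAA (an ETS factor core) and TATAAA (the TATA box) on either strand.
DUSP1: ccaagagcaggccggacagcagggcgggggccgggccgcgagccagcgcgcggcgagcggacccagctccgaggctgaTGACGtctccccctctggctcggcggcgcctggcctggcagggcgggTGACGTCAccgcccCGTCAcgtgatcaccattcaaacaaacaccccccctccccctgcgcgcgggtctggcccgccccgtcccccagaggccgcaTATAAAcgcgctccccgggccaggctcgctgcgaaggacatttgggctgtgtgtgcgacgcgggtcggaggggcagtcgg
PHLDA1: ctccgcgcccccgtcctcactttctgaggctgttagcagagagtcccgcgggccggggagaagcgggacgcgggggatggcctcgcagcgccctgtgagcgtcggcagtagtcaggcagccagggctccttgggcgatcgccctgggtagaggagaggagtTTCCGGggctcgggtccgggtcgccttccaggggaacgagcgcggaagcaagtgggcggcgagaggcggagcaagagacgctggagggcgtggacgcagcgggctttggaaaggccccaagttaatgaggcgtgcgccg
SPRY4: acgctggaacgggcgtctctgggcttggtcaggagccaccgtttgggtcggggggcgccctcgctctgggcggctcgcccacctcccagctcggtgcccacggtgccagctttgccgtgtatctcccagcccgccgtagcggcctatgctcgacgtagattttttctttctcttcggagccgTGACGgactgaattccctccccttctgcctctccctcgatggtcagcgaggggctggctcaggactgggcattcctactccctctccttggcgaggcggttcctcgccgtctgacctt

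The DUSP1 window holds TGACG or its reverse complement 4 times, at positions -172, -125, -122 and -111, counted so that -1 is the base before the start. The matches at -125 and -122 overlap and together form the full palindrome TGACGTCA, the cAMP response element, which CREB and ATF family factors bind. Of all 35116 promoter windows in the table, 1.85% hold TGACGTCA and 24.6% hold TGACG, and among the 10 windows of the 7 genes these were 1 and 4. A TATAAA lies at -30 of DUSP1, and 11.5% of all windows hold one. The PHLDA1 window holds CCGGAA on the other strand at -89, a motif found in 17.2% of all windows, and the SPRY4 window holds TGACG at -68. An AP-1 site (TGANTCA, in 7.71% of all windows) was found in 1 of the 10 windows, a downstream start of SPRED2. The EGR site GCGTGGGCG (0.795% of all windows) and the CArG box of serum response factor (1.29%) were found in none of the 10. These are matches of letters in short windows, not measured binding. The counts among the 10 windows do not cover DUSP4, DUSP5 or IER3.

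**Figure D1:**
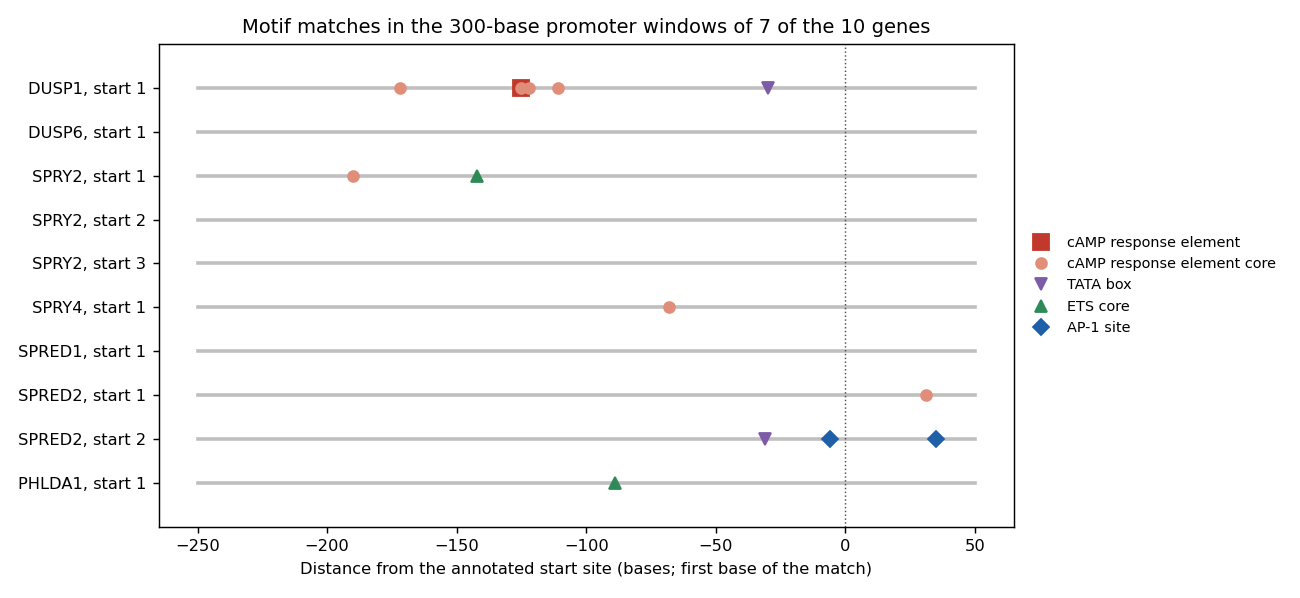
Motif matches (symbols) along the 10 promoter windows of 7 genes, by distance in bases from the annotated start (dotted line); grey bars are the windows, and SPRY2 and SPRED2 have several starts. The 4 cAMP response element cores of DUSP1, of which 2 overlap in the full element at -125, make this the only one of the 10 windows with more than 1 match to that core.

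Against 0 h the ratios of the 10 genes lay on both sides of 0 at 2 h (from -0.19 to 0.16) and 6 h (from -0.31 to 0.43), and from 0.07 to 1.98 at 12 h. The 12 h ratio was not above the 6 h ratio in every gene: DUSP6 was at 0.20 at 6 h and 0.16 at 12 h. DUSP1 was nearly level, at 0.43 and 0.44. None of the 10 was past 2-fold at 2 h, where 0.0354% of all genes were past 2-fold higher and 0.0101% lower, or at 6 h, where the shares were 0.101% and 0.283%. At 12 h 1 of 10, IER3, was past 2-fold higher against 0.946% of all genes, and 0 of 10 were past 2-fold lower against 0.986%. At 1.5-fold 4 of 10 were higher at 12 h (IER3, DUSP5, SPRY4 and PHLDA1), against 4.46% of all genes. All 10 had a ratio above 0 at 12 h, where 51.7% of all genes did, compared with 5 of 10 at 2 h and 5 of 10 at 6 h. At 2, 6 and 12 h the median of the 10 was 0.03, 0.01 and 0.38, beside medians of all genes of 0.02, 0.05 and 0.01. Because the 10 were chosen with earlier results of these data known, their counts and medians are descriptions and not a test.

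The probe sets were also counted singly. Of the 25 probe sets, 18 had their highest value on the 12 h array, beside 29.6% of all probe sets with 1 symbol, and 22 were above their 0 h value at 12 h, beside 51.4%. All 6 probe sets of PHLDA1 are in both counts, and probe sets of 1 gene on the same arrays are not separate observations. Past 2-fold higher at 12 h were 4 of the 25, beside 1.56% of all such probe sets: 1 of DUSP1, 2 of PHLDA1 and the 1 of IER3. At 6 h 1 of the 25, of PHLDA1, was past 2-fold higher, beside 0.246%. Between 6 h and 12 h 8 of 10 genes had a ratio above 0 (45.1% of all genes) and 2 were at or past 2-fold (0.799% of all genes), IER3 at 1.57 and DUSP5 right at the threshold.

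**Figure D2:**
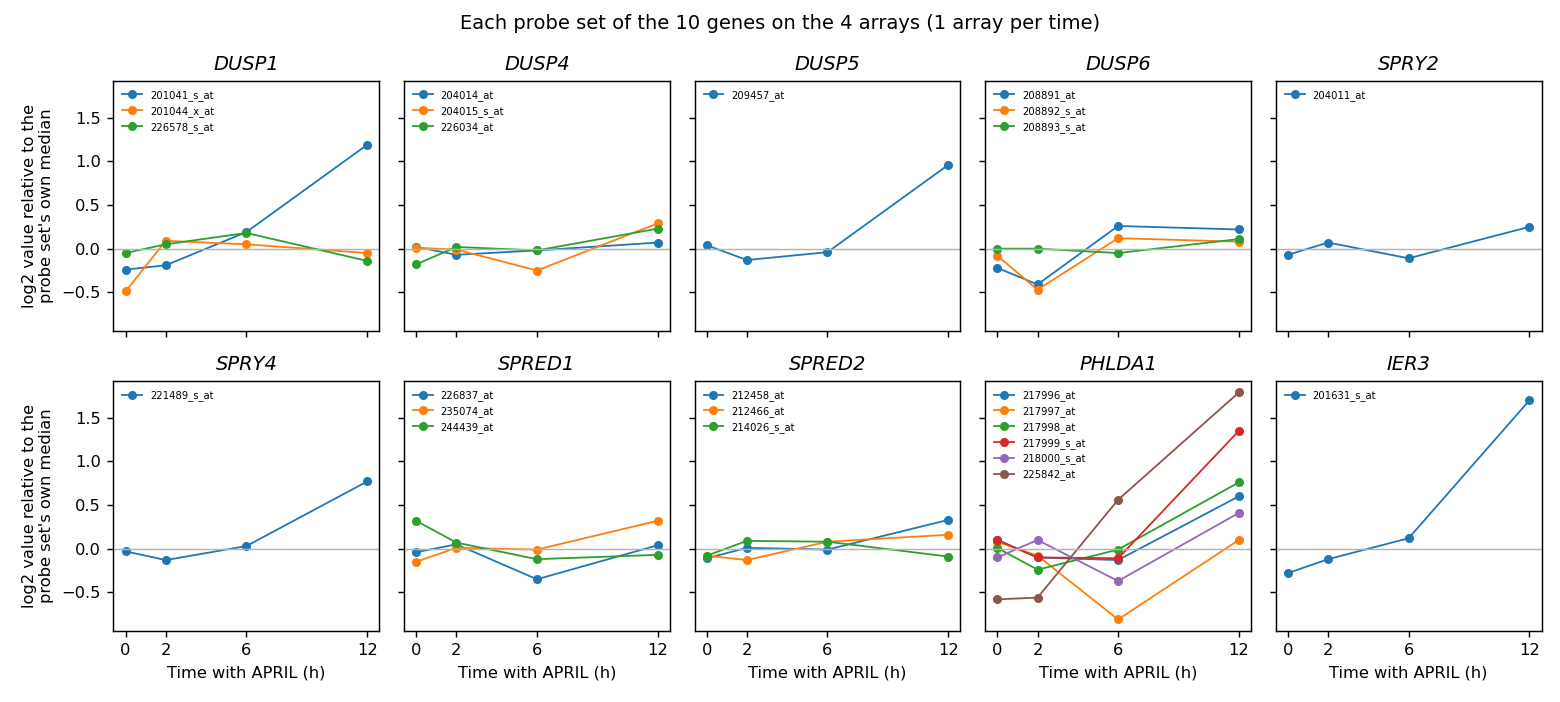
Values of the 25 probe sets (lines, named in each panel) of the 10 genes on the 4 arrays; the x axis is hours with APRIL and the y axis the log2 value relative to the probe set's median over the arrays. IER3, DUSP5 and SPRY4 turn upward between 6 h and 12 h, the probe sets of PHLDA1 fan out at 6 h, and 1 of the 3 DUSP1 probe sets stands above the other 2 at 12 h.

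DUSP5, a nuclear phosphatase that acts on ERK and hardly on the other MAP kinases, had the highest 12 h ratio of the 4 phosphatases by the median over probe sets, though 1 of the 3 probe sets of DUSP1 was higher, at 1.43 against 0.93. Its 1 probe set read 0.04, -0.13, -0.04 and 0.96 at 0, 2, 6 and 12 h. The first 3 arrays lay within a narrow band and the 12 h array stood above them. The log2 ratio of 12 h over 0 h was 0.93 (1.90-fold), the 237th highest of 19775 genes, after ratios of -0.17 at 2 h and -0.08 at 6 h. With no second probe set, this value has no probe set spread.

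DUSP1, the immediate-early phosphatase that also acts on p38 and JNK, was read by 3 probe sets that parted at 12 h. The probe set 201041_s_at read -0.24, -0.19, 0.19 and 1.19 at 0, 2, 6 and 12 h, a 12 h ratio of 1.43 (2.70-fold). By contrast 226578_s_at read -0.05, 0.05, 0.18 and -0.14 at these times and was lowest at 12 h, with a ratio of -0.09. The third, 201044_x_at, was low on the 0 h array alone, at -0.49, and read 0.09, 0.05 and -0.05 afterwards. All 3 had ratios above 0 at 2 h (0.05 to 0.58) and at 6 h (0.23 to 0.55), so the gene was at 0.43 at 6 h (SD 0.16) and 0.44 at 12 h (SD 0.77). The spread between the probe sets at 12 h exceeded that of 97.7% of the 10523 genes with several probe sets, and a 12 h change of DUSP1 therefore depends on which probe set is read. With the mean of the other 3 arrays in place of 0 h the 12 h ratio was 0.07.

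DUSP6, the cytoplasmic phosphatase specific to ERK, had a time course of another shape. Its probe set 208891_at read -0.22, -0.41, 0.26 and 0.22 at 0, 2, 6 and 12 h, and 208892_s_at read -0.08, -0.47, 0.12 and 0.08. Both were lowest at 2 h and near their highest at 6 h and 12 h, whereas the third, 208893_s_at, stayed within a range of 0.15 over all arrays. Between 2 h and 6 h the gene had a ratio of 0.59 (SD 0.39 over 3 probe sets), the 308th highest of 19775, in a comparison where 0.116% of all genes and none of the 10 were past 2-fold higher. Against 0 h it was at -0.19 at 2 h (SD 0.19), 0.20 at 6 h (SD 0.26) and 0.16 at 12 h (SD 0.18), each no larger than the yardstick or the probe set spread. It was 1 of 2 genes of the 10, with DUSP1, that did not have a ratio above 0 between 6 h and 12 h (-0.04, and -0.10 for DUSP1), and both are above 0 relative to the spiked-in RNAs.

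DUSP4, a nuclear phosphatase of ERK and JNK, moved little. Its ratios were -0.02 at 2 h (SD 0.15), -0.05 at 6 h (SD 0.21) and 0.28 at 12 h (SD 0.19 over 3 probe sets). At 12 h the 3 probe sets lay at 0.04, 0.28 and 0.41, all above 0, and each had its highest value on the 12 h array.

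The 2 Sprouty genes, which encode membrane-associated inhibitors of receptor signalling to RAS and RAF, were both highest at 12 h. SPRY4 read -0.03, -0.13, 0.03 and 0.77 at 0, 2, 6 and 12 h with its 1 probe set. As with DUSP5, 3 arrays lay together and the 12 h array apart from them, with a 12 h ratio of 0.80 (1.74-fold), the 352nd highest of 19775 genes. SPRY2 read -0.07, 0.07, -0.11 and 0.25, a 12 h ratio of 0.32 (1.25-fold) that is larger than the 12 h yardstick of 0.238 but lies in a band that holds many genes, as the 2715th highest. Both have 1 probe set, and that of SPRY4 ends in _s_at, a suffix for probe sets whose probes may bind more than 1 transcript.

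The Spred genes, relatives of Sprouty that bring the RAS inactivator neurofibromin to the membrane, had 12 h ratios within the yardstick or close to it. SPRED2 was at 0.11 at 2 h (SD 0.11), 0.16 at 6 h (SD 0.04) and 0.24 at 12 h (SD 0.22), with probe sets at 0.44, 0.24 and -0.01 at 12 h. SPRED1 was at 0.08 at 2 h (SD 0.22), -0.31 at 6 h (SD 0.30) and 0.07 at 12 h (SD 0.44). Its 3 probe sets did not share a direction at 12 h: 235074_at was at 0.48, 226837_at at 0.07 and 244439_at at -0.40, the last with its highest value, 0.32, on the 0 h array. SPRED1 at 6 h was the lowest ratio of the 10 genes at any time against 0 h, at percentile 6.7 of all genes, and 1 of its 3 probe sets was above 0 there.

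PHLDA1, a small protein with a pleckstrin homology-like domain that is induced by ERK, was read by 6 probe sets and had 12 h ratios above 0 in all of them, of very different size. On 225842_at it read -0.58, -0.56, 0.56 and 1.79 at 0, 2, 6 and 12 h, a 12 h ratio of 2.38 (5.19-fold), and of the 6 it alone was past 2-fold at 6 h (1.14, 2.20-fold). On 217999_s_at it read 0.10, -0.10, -0.11 and 1.35, a 12 h ratio of 1.25 (2.38-fold). The other 4 had 12 h ratios of 0.75, 0.50, 0.50 and 0.02, which put the gene at 0.62 (1.54-fold, SD 0.83).

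The probe sets of PHLDA1 also differed at 6 h. There 5 of 6 were below their 0 h value and 217997_at was at -0.90, so that the gene was at -0.22 (SD 0.67) although 225842_at was at 1.14. From 6 h to 12 h the 6 moved together: all were higher, by ratios from 0.72 to 1.46, with a gene ratio of 0.85 (1.80-fold, SD 0.30), the 266th highest of 19775. The probe sets thus differ in their value at 6 h and share the direction of the later step. The probe set spread at 12 h over 0 h was above that of 98.2% of genes with several probe sets.

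IER3, an early response gene that ERK phosphorylates and that can protect cells from death, had the highest ratio of the 10 genes by the median over probe sets. At 12 h 1 of the 6 probe sets of PHLDA1 was higher, at 2.38 against 1.98. IER3 read -0.28, -0.12, 0.12 and 1.70 at 0, 2, 6 and 12 h with its 1 probe set. The values go up at each time, by small steps at first: the ratio against 0 h was 0.16 at 2 h, 0.41 at 6 h (1.32-fold) and 1.98 at 12 h (3.94-fold). At 6 h it was the 886th highest of 19775 genes and at 12 h the 13th. The probe set ends in _s_at, and without such probe sets IER3 has no value.

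**Figure D3:**
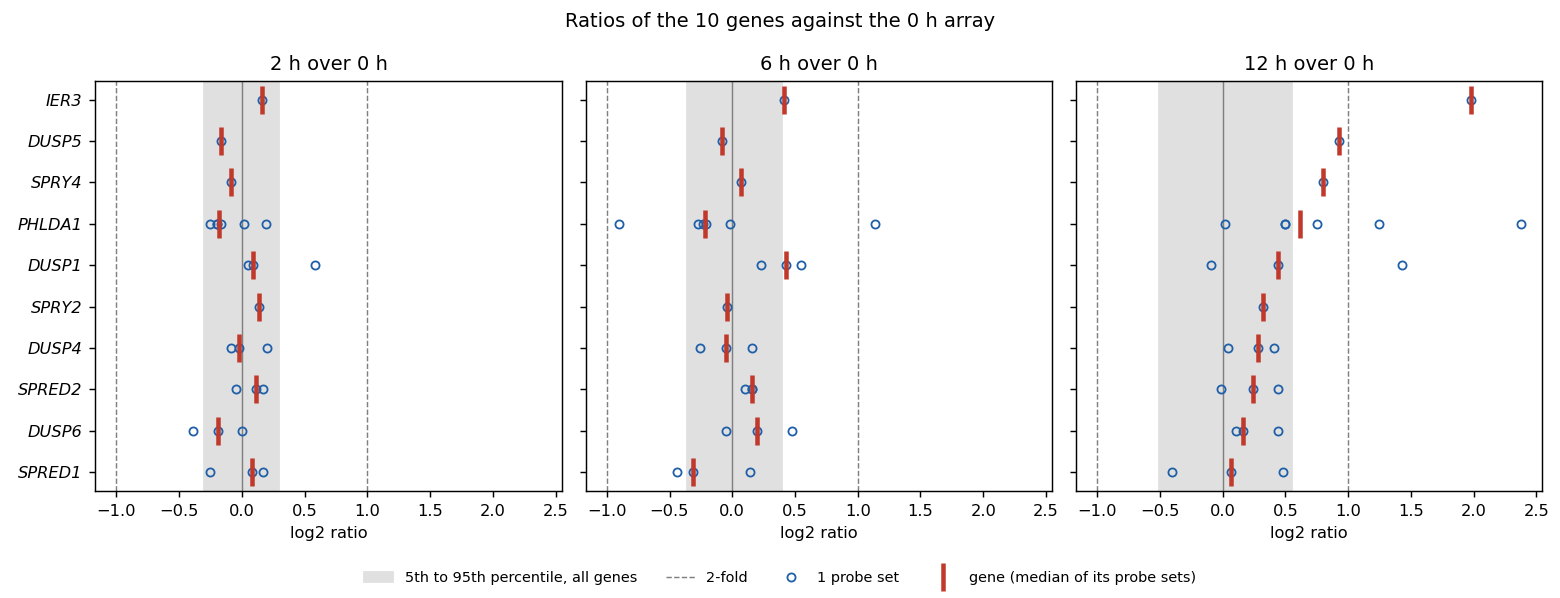
Log2 ratios of the 10 genes (rows, ordered by their 12 h ratio) at 2, 6 and 12 h over 0 h; open circles are probe sets, red bars the median per gene, the grey band the 5th to 95th percentile of all 19775 genes and dashed lines 2-fold. At 12 h IER3 (1.98), DUSP5 (0.93), SPRY4 (0.80) and PHLDA1 (0.62) lie beyond the band, with PHLDA1 probe sets from 0.02 to 2.38.

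By the 12 h ratio the genes were ordered IER3, DUSP5, SPRY4, PHLDA1, DUSP1, SPRY2, DUSP4, SPRED2, DUSP6 and SPRED1. IER3 was apart from DUSP5 by 1.05, though 1 probe set of PHLDA1 lay above IER3. All other neighbours were apart by 0.04 to 0.18, less than the 12 h yardstick of 0.238, so the order between such neighbours is not resolved by these arrays. The SDs between probe sets of PHLDA1 and DUSP1 (0.83 and 0.77) span most of that order.

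The genes whose time course was most like a member were sought by the root-mean-square difference over the 3 log2 ratios against 0 h, for the 2 members with a range of 2-fold or more. Nearest to DUSP5 were GPR137B (difference 0.0521, with ratios of -0.14, -0.05 and 0.85), KLC2 (0.0692) and TCP11L2 (0.0742). Nearest to IER3 were the sodium channel gene SCN2A (0.169, with ratios of 0.26, 0.41 and 1.70), LDLRAD3 (0.181) and the transcription factor gene SOX8 (0.187). No other member was among the genes compared, and 3 ratios per gene that share the 0 h array are few points for a likeness.

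Other genes of the pathway were read from lists of related genes. At 12 h over 0 h 51.7% of all genes were above 0 and 0.946% past 2-fold higher. Among 11 further MAP kinase phosphatases the median at 2, 6 and 12 h was 0.08, 0.14 and 0.18, with 9 of 11 above 0 and 1 past 2-fold higher at 12 h. This was DUSP10, a phosphatase of p38 and JNK, at 0.94 at 6 h and 1.47 at 12 h (SD 0.09 over 2 probe sets), above the gene ratios of all 4 phosphatases described before. DUSP8, which also acts on JNK and p38, was at 0.61 at 12 h with probe sets at -0.07 and 1.29, and DUSP14 was at 0.54. Among 11 other inducible brakes on receptor signalling the 12 h median was 0.10, with 9 above 0 and none past 2-fold. The highest was ERRFI1, which binds and inhibits the EGF receptor, at 0.12 at 2 h, -0.34 at 6 h and 0.94 at 12 h, a step of 1.28 from 6 h to 12 h. Next in absolute size were PHLDA2 at 0.49 (SD 0.86 over 3 probe sets) and, as the lowest of the 11, SPRED3 at -0.32, which is positive relative to the spiked-in RNAs.

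The kinases and adaptors of the cascade itself had list medians near those of all genes, though some single genes lay above the 12 h yardstick. Of 22 genes listed 16 were read, with medians of 0.02, 0.10 and -0.01 at 2, 6 and 12 h, and none past 2-fold at any of these times. The largest 12 h ratios were those of MAP2K2 at 0.63 (SD 0.33 over 3 probe sets), PEA15, which holds ERK in the cytoplasm, at 0.54 (SD 0.14 over 2) and MAP2K1 at 0.48. MAP2K1 and MAP2K2 encode the MEK kinases that activate ERK.

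Among 19 genes known to respond to ERK the medians at 2, 6 and 12 h were 0.05, 0.02 and 0.28. At 12 h 14 of 19 were above 0 and 4 past 2-fold higher, beside 51.7% and 0.946% of all genes. The transcription factor EGR1 was at -0.09, 0.22 and 2.91 (SD 0.59 over 3 probe sets at 12 h), and JUNB at 0.05, 0.11 and 1.19. The ephrin receptor EPHA2 was at 0.21, 0.95 and 1.66, and the EGF receptor ligand HBEGF at 0.08, 0.44 and 1.28 (SD 1.20 over 4 probe sets at 12 h). Not all ERK-responsive genes were higher at 12 h. CCND1, cyclin D1, was at -0.43 (SD 0.23 over 2 probe sets). ETV5, an ETS factor often read together with DUSP6 and SPRY4, was at -0.30 (SD 0.37 over 5 probe sets), a spread larger than the ratio. Relative to the spiked-in RNAs the ratio of ETV5 is positive. CCND1 and ETV5 were singled out after their values were seen. These lists were chosen with results of these arrays known, and their counts are descriptions.

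**Figure D4:**
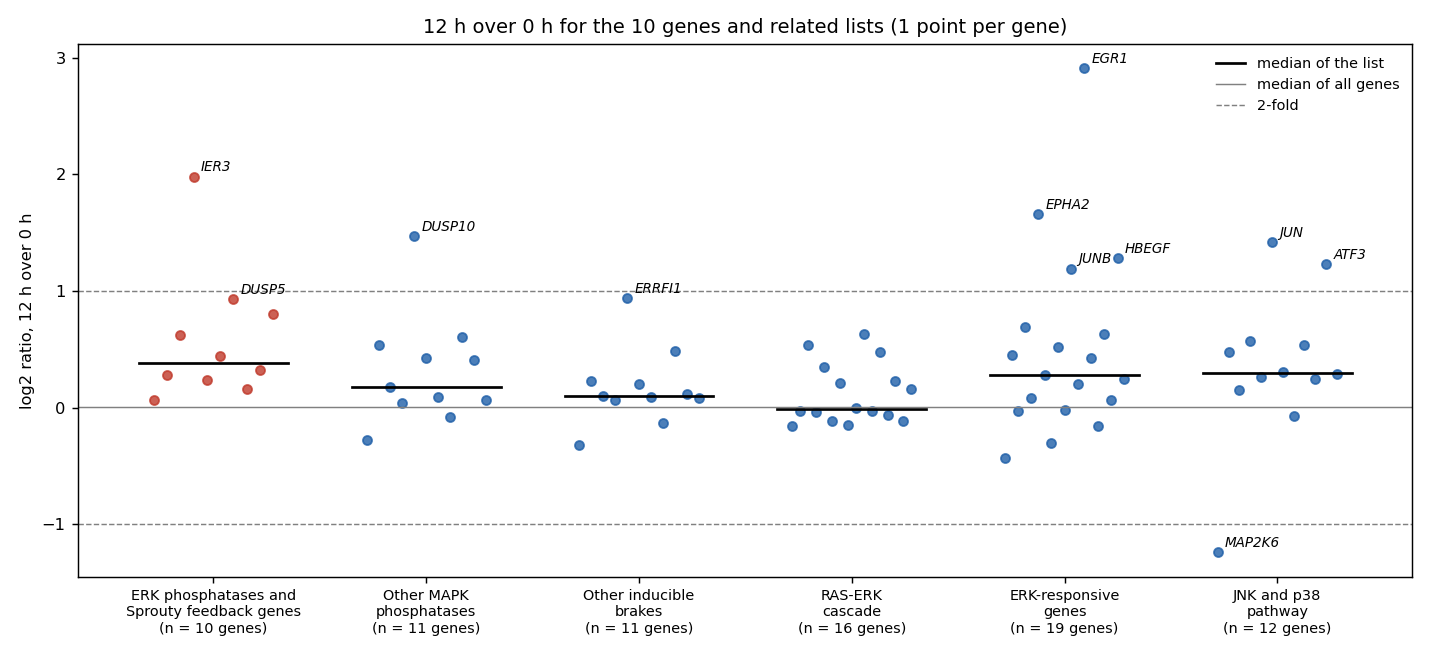
Log2 ratio of 12 h over 0 h for each gene (points) of the 10 genes (red) and 5 related lists (blue); black bars are list medians, the grey line the median of all genes and dashed lines 2-fold. The medians are 0.38 for the 10 genes, 0.18 for the other MAPK phosphatases, 0.10 for the other brakes, -0.01 for the RAS-ERK cascade, 0.28 for ERK-responsive genes and 0.30 for the JNK and p38 pathway.

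Markers of cell types were read beside these genes. The 9 hepatocyte markers read had a median of 0.06 at 12 h, with the highest, TTR and FGB, at 0.46 and 0.45 and the lowest, TF, at -0.17. The 6 immune markers had a median of -0.02 (LYZ -0.16, MS4A1 -0.10, CD3E 0.10), and the 9 fibroblast and endothelial markers 0.05. Of the latter, PDGFRB was at 0.25 at 2 h, -0.49 at 6 h and 0.89 at 12 h, past 2-fold higher between 6 h and 12 h (1.39), while PECAM1 was at -0.30 and VWF at -0.18 at 12 h. Whether any of these transcripts is present cannot be told from values relative to their own median.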

How the data were processed

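Total RNA was measured on 4 arrays, 1 per time. The deposited log2 values were made by the authors with RMA, per the submitters' processing notes, which give no version. RMA corrects background, gives all arrays the same distribution and summarises the probes of a set. In the deposited log2 values all 54675 probe sets have a median of 0 within 1e-06 over the arrays. What centred them, the base of the logarithm and the direction are not given in the sources used here, so base 2 and higher as more transcript were assumed. The medians of the 0, 2, 6 and 12 h columns were -0.005, 0, 0.011 and -0.0043. By the platform annotation 41091 probe sets had 1 symbol, 1801 several (none a member), 11721 none, and 62 were controls. Of the 41091, 41037 had a gene identifier in RefSeq on GRCh38.p14.

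Log2 ratios between arrays were computed per probe set in Python 3.11.15 (pandas 2.3.3), and a gene took the median over its probe sets. Called means at or past 2-fold. The calculation was tested on simulated data. The members and lists were chosen with earlier results of these data known. Named by rule are all members, the 3 genes of each list with the largest 12 h ratio in absolute size, any list gene past 2-fold, and the 3 genes most like each member with a range of 2-fold or more. The number of arrays limits the precision. Alternatives were 2 centrings, leaving out _x_at and _s_at probe sets, 2 other summaries per gene, another reference, and thresholds of 1.5-fold and 3-fold.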

Additional observations from a re-analysis of the deposited data

How the results depend on the processing

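No paired analysis was possible because each time has 1 array and no replicate. A value was held to have moved where it shifted by more than the robust SD of all genes between 2 h and 0 h (0.163), and a count where it differed by more than 1.5 times. The count of members past 2-fold higher at 12 h over 0 h, 1 in the report, was 3 with arrays centred on the spike-in controls, 0 without _x_at and _s_at probe sets (which leave 7 of the 10 genes, without IER3, DUSP1 and SPRY4), 3 with the probe set of widest range, 2 against the mean of the other 3 arrays and 4 at 1.5-fold. For 12 h over 6 h, 2 in the report, it was 4, 1 and 4 under the same first 3 settings, 4 at 1.5-fold and 0 at 3-fold. Over all genes that count, 158 in the report, was 733, 132 of 17098, 351, 694 and 27 under these settings in turn. With the probe set of widest range the count of members was 1 at 6 h over 0 h and 1 at 6 h over 2 h, where it was also 1 at 1.5-fold. For 6 h over 2 h the count over all genes was 23 in the report, 105 with the widest probe set and 311 at 1.5-fold. The median of the members at 12 h over 0 h, 0.38, was 0.73 with spike-in centring and 0.64 with the widest probe set. With the other 3 arrays averaged as the reference, which then holds the 12 h array, it was -0.22 at 2 h and -0.18 at 6 h. Over the 5 pathway lists together, counts past the threshold became 2 higher at 6 h and 12 higher at 12 h at 1.5-fold, 2 higher and 0 lower at 12 h at 3-fold, 2 lower at 6 h with the widest probe set and 0 lower at 12 h with spike-in centring. Over all genes at 12 h over 0 h, 187 higher and 195 lower became 694 and 76 with spike-in centring, and 513 and 508 with the widest probe set. They became 881 and 731 at 1.5-fold, 33 and 38 at 3-fold, and 132 and 149 against the mean of the other 3 arrays. Without _x_at and _s_at probe sets they were 177 and 182 of 17098 genes. At 6 h over 0 h, 20 higher and 56 lower became 227 and 324 at 1.5-fold, and 87 and 327 with the widest probe set. The members with a value all stayed above 0 at 12 h under each alternative run, but single ratios did move. Of the 30 ratios of members against 0 h, 13 moved against the mean of the other 3 arrays, 10 with spike-in centring, 10 with the widest probe set (PHLDA1 at 12 h from 0.62 to 2.38), 1 with the mean of the probe sets and 0 with arrays centred on their median. Without _x_at and _s_at probe sets 2 moved and 19 did not. Signal over background, which limits dim probe sets, cannot be read from centred values.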

Other observations

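The list of 12 JNK and p38 pathway genes read here, the stress kinases on which DUSP1 and DUSP10 also act, had medians of 0.04, 0.09 and 0.30 at 2, 6 and 12 h. At 12 h 10 of 12 were above 0, beside 51.7% of all genes. The highest at 12 h were the transcription factors JUN at 1.42 (SD 0.66 over 4 probe sets) and ATF3 at 1.23 (SD 0.95 over 3, with probe sets from -0.04 to 1.83). MAP2K6, a kinase that activates p38, was past 2-fold lower at 12 h, at -1.24 (SD 0.09 over 2 probe sets), after -0.02 at 2 h and -0.19 at 6 h. It was the only one of these 12 genes past 2-fold lower, beside 0.986% of all genes, and relative to the spiked-in RNAs it was not past 2-fold.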
